A study of Mus musculus with 11 samples.

Results

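CpG-poor promoters are start regions of genes whose DNA holds far fewer CpG dinucleotides than its content of C and G would give. Here they were the 500 bp around the most upstream start site of each protein-coding gene of the mouse genome (mm9) with a ratio of observed over expected CpG below 0.4. Of 22,353 promoters, 8,538 had such a ratio, 2,738 lay between 0.4 and 0.6, and 11,077 reached 0.6 or more and are called CpG-rich. The CpG-poor windows had a median GC content of 47.6% and the CpG-rich windows one of 65%.

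The reads came from ChIP-Seq of PU.1 in MEL, a murine erythroleukemia line stably transfected with Gata-1 fused to the estrogen receptor (clone 4), and in ES-EP, untransformed erythroid progenitors derived from embryonic stem cells and kept dividing with dexamethasone, IGF-1, SCF and erythropoietin. Each cell type had 2 chromatin preparations (A and B) recovered with the same antibody against PU.1 (T-21) and sequenced as 2 libraries each, beside 1 input library in MEL and 2 in ES-EP. The MEL cells were 1 clone, so n = 2 preparations measures the spread between preparations only. In a bulk sample, fewer cells with PU.1 on a promoter cannot be told apart from less PU.1 on it per cell. Read counts of a cell type are given for preparation A first and B second. ChIP reads hold no expression values, so the labelled cell types were not checked against markers.

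PU.1 belongs to the Ets family of DNA-binding proteins and recognises purine-rich stretches around the core GGAA. It is needed for myeloid and B cells, is also present in immature erythroid cells and is turned down as these mature. Most CpG-rich promoters in mammals belong to widely used genes and are open in many tissues. CpG-poor promoters mostly belong to genes used in 1 or few tissues, carry methylated CpGs where they are silent, and include those of olfactory receptors, of secreted proteins and of many leukocyte receptors.

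A promoter was called occupied in a cell type when the ChIP reads of both preparations together exceeded the depth-scaled input reads at an adjusted p below 0.05 (two-sided exact binomial test, Benjamini-Hochberg over all promoters with a read) and each preparation alone had at least 2 times the scaled input. PU.1 occupied 69 CpG-poor promoters in MEL, 98 in ES-EP and 119 in at least 1 of the cell types, of which 48 were occupied in both. These were 0.95% and 1.32% of the CpG-poor promoters tested in MEL and for ES-EP, beside 10.5% and 6.73% of all promoters tested. Among the genes behind them were leukocyte receptors, adaptors and regulators of the actin skeleton, such as Fgd2, Laptm5, Dock2, Vav1, Btk, Fcgr2b and Tlr9. None of 1,094 CpG-poor promoters of olfactory receptor genes was occupied, beside 1.39% of the class.

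The sequences before some of these start sites are shown since a purine-rich word that holds GGAA lies under the reads of most occupied CpG-poor promoters. The 3 words searched on both strands were GAGGAAGT, AGAGGAAG and AGGAAGTG, which overlap each other, and a further word was CCGGAAGT, which holds a CpG. Capitals mark these words on either strand. The first set holds the 150 bases before the start site, 5′ to 3′ along the gene, for promoters occupied in both cell types, in MEL (Il33) and in ES-EP (Cd72 and I830077J02Rik), from the mm9 genome. Il33 and Alox5ap have none of the words in this stretch.
Clec10a (chr11:69979975-69980124, plus strand): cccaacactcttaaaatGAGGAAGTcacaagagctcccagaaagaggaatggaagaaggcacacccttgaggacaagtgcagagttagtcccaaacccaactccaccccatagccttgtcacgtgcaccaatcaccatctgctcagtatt
Dock2 (chr11:34597395-34597544, minus strand): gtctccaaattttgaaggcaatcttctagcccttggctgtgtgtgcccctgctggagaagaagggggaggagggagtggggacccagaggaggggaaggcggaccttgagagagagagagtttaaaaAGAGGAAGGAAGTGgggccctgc
Alox5ap (chr5:150076484-150076633, plus strand): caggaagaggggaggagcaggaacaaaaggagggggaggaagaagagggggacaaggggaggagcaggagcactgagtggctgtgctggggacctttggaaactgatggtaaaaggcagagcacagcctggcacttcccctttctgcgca
Il33 (chr19:29999454-29999603, plus strand): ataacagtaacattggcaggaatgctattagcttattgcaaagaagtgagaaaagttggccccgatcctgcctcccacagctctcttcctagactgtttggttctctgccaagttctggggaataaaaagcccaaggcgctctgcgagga
Cd72 (chr4:43467501-43467650, minus strand): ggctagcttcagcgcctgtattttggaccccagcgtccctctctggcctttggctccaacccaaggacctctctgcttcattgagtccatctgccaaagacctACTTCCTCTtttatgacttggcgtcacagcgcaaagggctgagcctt
I830077J02Rik (chr3:105735583-105735732, minus strand): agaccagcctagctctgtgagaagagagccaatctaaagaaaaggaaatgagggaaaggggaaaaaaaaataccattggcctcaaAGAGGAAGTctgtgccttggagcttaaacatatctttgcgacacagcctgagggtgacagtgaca

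For the promoters whose word lies in an annotated exon or after the start site, only the 30 bases around the word are shown. In Fgd2 this stretch lies from 37 to 8 bases before the start, in Tlr9 from 2 before to 27 after it, in Pld4 from 1 before to 28 after it, in Cd53 from 5 before to 24 after it, in Itgb2 from 66 to 95 after it and in Laptm5 from 141 to 170 after it.
Fgd2 (chr17:29497850-29497879, plus strand): tactgggacCACTTCCTCTtttttcactct
Tlr9 (chr9:106124927-106124956, plus strand): agtgaaagtgtCACTTCCTCaattctctga
Pld4 (chr12:113998865-113998894, plus strand): tcagaacaaAGAGGAAGTGaatggaagggg
Cd53 (chr3:106593043-106593072, minus strand): cactcagtctCACTTCCTCactcttctcgc
Itgb2 (chr10:76993063-76993092, plus strand): tgacttagaacAGGAAGTGtcaggcggggg
Laptm5 (chr4:130469181-130469210, plus strand): gcagcctgtggCTTCCTCTtttttgttctg

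For comparison, the CpG-rich promoter that was occupied in both cell types with the largest lowest ratio of ChIP to input belongs to Arpc4, a subunit of the complex that branches actin filaments. It had 178 and 409 reads in the MEL preparations against 3 in input, and 571 and 358 in the ES-EP preparations against 6. Its 150 bases hold 9 CpGs and the word CCGGAAGT, while the 150-base CpG-poor stretches shown above hold between 1 and 4 CpGs each. A gap in CpGs follows from how the classes were set.
Arpc4 (chr6:113327957-113328106, plus strand): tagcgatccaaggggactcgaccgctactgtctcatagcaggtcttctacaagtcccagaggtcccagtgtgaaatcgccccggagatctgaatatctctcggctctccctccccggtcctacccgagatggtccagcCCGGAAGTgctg

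The depth sets what could be called. The libraries held between 2,054,667 and 5,051,235 placed reads, and the median CpG-poor window had 2 ChIP reads and 1 input read in MEL and 3 and 1 in ES-EP. A window without input reads needed 20 ChIP reads to be called in MEL and 14 in ES-EP, and one with 1 input read needed 27 and 18. No read of any library fell in 764 of the 8,538 CpG-poor windows, and 7,260 could be tested in MEL and 7,424 in ES-EP. Weaker binding was not detectable at this depth.

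Of the 8 ChIP libraries 3, namely the second of each MEL preparation and of ES-EP preparation A, carry alignment match codes (U0 to U2) that no input library and no other ChIP library carries. They hold 45.4% of all ChIP reads and gave a median of 49.1% of the ChIP reads in the 119 occupied windows. In 2 of these windows they gave over 80%. All 215 ChIP reads of Lilrb3, which codes for an inhibitory immunoglobulin-like receptor, came from these 3 libraries, with 56 and 61 reads in MEL and 98 in ES-EP, and the other libraries and every input library had 0. The other window was A530064D06Rik with 7 and 17 reads in MEL and 21 and 1 in ES-EP. Without the 3 libraries Lilrb3 had no read and A530064D06Rik lost its call in ES-EP, so both are counted below only as the rule calls them. Without the 3 libraries 60 CpG-poor promoters were occupied in MEL, 55 of them among the 69, and 76 in ES-EP, all of them among the 98. This alternative was chosen after seeing the data.

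In MEL cells 69 of 7,260 tested CpG-poor promoters were occupied (0.95%), beside 2,064 of 10,980 CpG-rich promoters (18.8%) and 10.5% of all promoters tested. In ES-EP the values were 98 of 7,424 (1.32%), 1,236 of 10,987 (11.2%) and 6.73% of all. In both cell types 48 CpG-poor promoters were occupied, beside 4.08% of all promoters tested in both. The CpG-poor shares were thus far below the background of all promoters. Far fewer CpG-poor windows were covered well, with 965 in MEL and 1,006 for ES-EP at 10 ChIP and input reads or more against 9,816 and 10,202 CpG-rich ones. Of these windows 7.15% of the CpG-poor, 21.0% of the CpG-rich and 18.4% of all were occupied in MEL, and 9.74%, 12.1% and 11.4% in ES-EP, so that the gap was much smaller. The minimum uses the same reads as the call and keeps every occupied CpG-poor window, which raises their share by itself. The counts depended on the test and the samples. With limma against input 17 CpG-poor promoters passed in MEL and 41 for ES-EP. It lost 38 of the 80 calls at named promoters. These include both calls at Csf2rb2, Il1b, Itgb2, Cd300lf and Nfe2, and the MEL calls of Tlr9, Snx20, Dock2, Pira5, Lilra6, Inpp5d and those of Nlrp10, Il33, Cfp, Cd53, Fcgr1 and Tyrobp. Without MEL preparation B 41 were called there, without ES-EP preparation A 57, and without the second ES-EP input library 42, while the inputs of both cell types summed, an alternative added after seeing the data, gave 152 in MEL. ChIP fell below input at an adjusted p below 0.05 in 33 CpG-poor windows in MEL and in 4 in ES-EP, beside 53 and 35 of all windows.

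The occupied share rose with the CpG ratio within the CpG-poor promoters as well, here over all promoters of a step, tested or not. The median GC content also rose, from 43.2% in the lowest of these steps to 51.4% in the highest. The shares were not adjusted for GC content or coverage. In MEL cells it was 0.456% of 1,975 promoters with a ratio below 0.1, 0.578% of 2,768 between 0.1 and 0.2, 0.863% of 2,201 between 0.2 and 0.3 and 1.57% of 1,594 between 0.3 and 0.4. In ES-EP the same steps gave 0.658%, 0.867%, 1.14% and 2.26%. Just past the limit, from 0.4 to 0.5, the share was lower again at 1.21% in MEL and 2.05% in ES-EP. At a ratio of 1.0 or more 30.9% of promoters were occupied in MEL and 10.3% in ES-EP. The occupied promoters nearest to the limit were Pik3cg (ratio 0.398) and Elmo3 (0.396) below it, and Ino80d (0.403) and Ticam1 (0.405) above it.

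**Figure D1:**
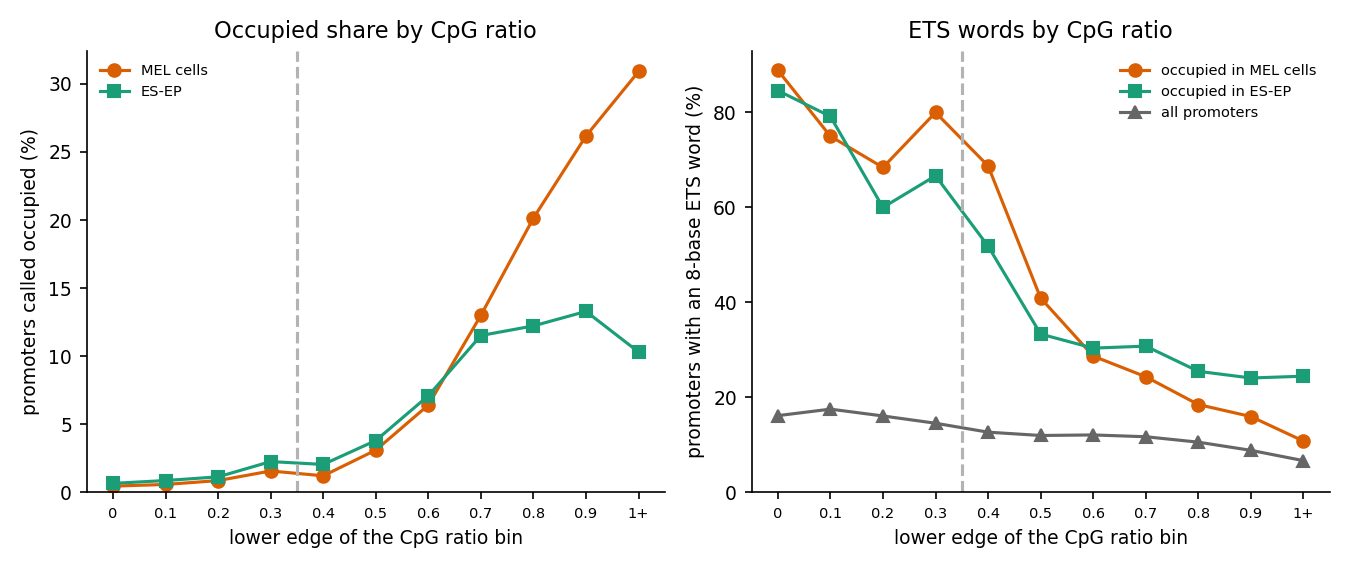
The left panel plots the share of promoters called occupied (percent) and the right panel the share that holds one of the 3 overlapping 8-base ETS words (percent), both against the lower edge of bins of the CpG ratio, with the limit of 0.4 dashed and the last bin open at 1.0 and above. In MEL the occupied share went from 0.456% in the first bin to 30.9% in the last, with a dip from 1.57 to 1.21% past the limit. The share of promoters occupied in MEL with a word went from 88.9% to 10.8%. In ES-EP the occupied share was highest at 13.3% (ratio 0.9 to 1.0) and 10.3% in the last bin, and the word share lay between 24.1% and 30.8% from a ratio of 0.6 upward.

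The words were found in 16.3% of all CpG-poor windows, 10.3% of all CpG-rich windows and 12.8% of all promoters. Of the 119 CpG-poor promoters occupied in either cell type, 83 held at least 1 of the 3 words (69.7%, 95% exact binomial interval 60.7 to 77.8%). The share was 81.2% of the 48 occupied in both cell types, 66.7% of the 21 occupied in MEL alone and 30 of the 50 occupied in ES-EP alone, against 15.5% of those occupied in neither. Of the 2,547 occupied CpG-rich promoters 18.5% held a word (17.0 to 20.1%) and of the unoccupied ones 7.82%. By cell type it was 30.3% of the 753 CpG-rich promoters occupied in both, 10.6% of the 1,311 in MEL alone and 21.5% of the 483 in ES-EP alone. These words follow the site already known from earlier analyses of the same reads and are no independent evidence of binding.

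The same shares were taken among occupied windows of like ratio of ChIP to input. A like ratio is not a like number of reads. Over all windows of a class, occupied or not, the median input was 1 read in CpG-poor windows. In CpG-rich windows it was 3 in MEL and 12 in ES-EP. The medians of the occupied windows alone are not given here. Below 10 times the input, 27 of 34 CpG-poor (79.4%) and 230 of 1,565 CpG-rich promoters (14.7%) held a word in MEL. For ES-EP the counts there were 37 of 57 (64.9%) and 273 of 1,079 (25.3%). In neither cell type did these intervals overlap. In ES-EP, 18 of 24 CpG-poor promoters at 20 times the input or more held a word (interval 53.3 to 90.2%), and 17 of 35 CpG-rich promoters did (48.6%, 31.4 to 66.0%), with intervals that overlap. Between 10 and 20 times the input the counts were 14 of 17 (82.4%) and 42 of 122 (34.4%). In MEL cells, 21 of 27 CpG-poor promoters (77.8%) and 99 of 393 CpG-rich promoters (25.2%) held a word between 10 and 20 times the input. Above that, 5 of 8 (62.5%, 24.5 to 91.5%) stood beside 38 of 106 (35.8%), where the intervals overlap as well.

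The word lay close to the reads. In the 83 windows with a word, the nearest 1 was a median of 19 bp from the median fragment centre of the ChIP reads, and in 69 it was within 50 bp. In Clec10a, Cd72, Tyrobp and Dock2 the distances were 12, 0, 5 and 5 bp. Alox5ap was an exception with its nearest word 190 bp away, and in Trim56, Snx20, Fcgr2b, Rgs18 and Lyl1 none of the 3 words was in the window. The median centre over the 119 promoters was 18 bp before the start site. Each centre was taken from the reads inside the window only. In 14 promoters the highest 100 bp within 2 kb lay outside the window, among them Tyrobp, Fcgr1, Cfp, Myo1g, Treml2 and Cd37.

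Other words set the classes apart less or in other ways. The CpG-holding word CCGGAAGT was in 0.82% of CpG-poor and 10.3% of CpG-rich windows. It was in 19.9% of the CpG-rich promoters occupied in both cell types against 1 of the 48 CpG-poor ones. The classes were set by their CpG ratio, so a gap between them in a word with a CpG follows from the definition. TATAAA was in 29.1% of CpG-poor windows and in 12.6% of the occupied ones. The GATA-type word AGATAA was as frequent in occupied CpG-poor promoters (25.2%) as in all of them (25.2%), and CACCC was in 82.4% against 68.0%. The occupied CpG-poor windows were richer in GC than the class as a whole, with medians of 53.0% and 47.6%, and the share of the words was not adjusted for this.

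Over the summed class, PU.1 ChIP stood little above input at CpG-poor promoters. The ratio of ChIP to depth-scaled input summed over the 8,538 windows was 1.02 and 1.25 in the MEL preparations and 1.48 and 1.34 in the ES-EP preparations. At CpG-rich promoters the ratios were 2.03, 3.83, 2.24 and 1.28. The log2 difference between the classes was -1.0, -1.61, -0.60 and 0.07, with a mean of -0.79 ± 0.71 (SD, n = 4), and did not pass the exact sign-flip test (two-sided p = 0.25, where 4 preparations allow no p below 0.12). The difference was negative in 3 of 4 preparations, at -1.31 on average in MEL and -0.26 in ES-EP. Both preparations of a cell type were divided by the same input, so the 4 values are not independent. The SD spans both cell types.

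The MEL input library differed from the ES-EP input libraries in these classes. MEL had 1 input library, so a difference between cell types cannot be told apart from one between libraries. No other class of promoter was compared here. CpG-rich starts held 2.80 times the reads of flanks 1.5 to 2 kb away in the MEL input and 5.20 and 6.25 times in the ES-EP inputs, while the CpG-poor starts held 1.34, 1.04 and 1.06 times. The CpG-poor share of reads in CpG-poor and CpG-rich windows together was 21.3% in the MEL input (interval 20.9 to 21.7%) and 9.08% and 7.25% in the ES-EP inputs. In ChIP it was 11.9% and 8.12% in the MEL preparations and 5.24% and 8.09% in ES-EP. The mean was 8.34% ± 2.73 (SD, n = 4) in ChIP and 12.5% ± 7.63 (SD, n = 3) in input, a difference of -4.20 percentage points (exact permutation test, two-sided p = 0.40, smallest possible 0.0571). Within MEL the difference was -11.3 and within ES-EP -1.50 points. How far the raised input at CpG-rich starts enters the counts of occupied promoters was not tested.

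**Figure D2:**
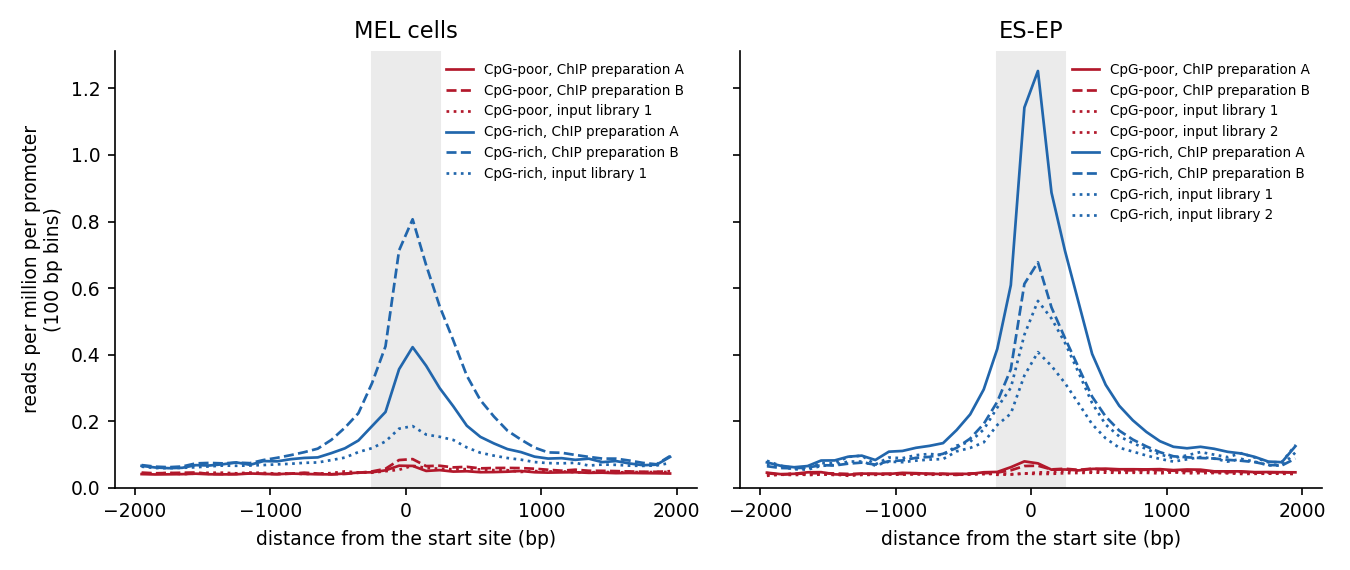
CPM (reads scaled to library depth) per promoter in 100 bp bins against distance from the start site (bp), for CpG-poor (red) and CpG-rich (blue) promoters, with solid and dashed lines for ChIP preparations A and B, dotted lines for input and the 500 bp window shaded. At the start the CpG-poor ChIP lines reached 1.48 to 1.80 times their flanks and the CpG-rich ones 5.57 to 14.4 times.

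A small part of the class carried much of its ChIP signal. The 119 occupied promoters, 1.39% of the class, held 18.4% and 21.2% of the CpG-poor ChIP reads in the MEL preparations and 29.0% and 17.1% in ES-EP, against 3.60% in the MEL input and 2.47% and 2.60% in the ES-EP inputs. They were chosen on these reads, so this is a description. Outside them the summed ratio of ChIP to input at CpG-poor promoters was 0.861 and 1.02 in MEL and 1.08 and 1.14 in ES-EP.

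Among the 48 promoters occupied in both cell types the ratio of ChIP to input ranged from 2.70 to 45.2 in MEL (median 11.3) and from 3.71 to 164 in ES-EP (median 18.1). An input of 0, as in 6 of them in MEL and 4 in ES-EP, was set to 3 reads. The ratio is then a value at that floor and can lie above the exact lower limit. All intervals and bounds given here cover counting error only.

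Fgd2, an exchange factor for the small GTPase Cdc42, led the list (CpG ratio 0.195, chr17:29497637-29498136). It had 99 and 161 reads in the MEL preparations with 0 in input. With the input set to 3 reads the ratio was 29.2, and the exact 95% lower limit at an input of 0 was 23.6. In the ES-EP preparations it had 221 and 146 reads against 4 in input. All 8 ChIP libraries were high, from 37 to 144 reads. A430084P05Rik, now named Scimp and coding for an adaptor of antigen-presenting cells, had 69 and 103 reads against 2 in MEL and 112 and 46 against 2 in ES-EP. Its ratios were 29.0 (95% exact interval 7.91 to 241) and 44.2 (12 to 368). Clec10a, a galactose-binding lectin of macrophages and dendritic cells, had 70 and 73 reads against 2, and 169 and 76 against 3, or 24.1 times (6.56 to 201) and 45.7 times (15.5 to 223) the input. Scaled to depth, ES-EP preparation A was above B in each of the 3, while MEL preparation B was above A at Fgd2 and A430084P05Rik and below it at Clec10a.

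Alox5ap, the protein that presents arachidonic acid to 5-lipoxygenase, had the most ChIP reads of the occupied CpG-poor promoters in MEL. It had 99 and 309 against 7 in input (19.7 times). In ES-EP it had 180 and 113 against 1, and that single input read leaves the ratio of 164 with an interval from 29.2 to 6499. Tlr9, the endosomal receptor for unmethylated CpG DNA, had only 31 and 35 reads against 1 in MEL and 40 and 21 against 1 in ES-EP, at a CpG ratio of 0.0585. Trim56, a ubiquitin ligase of antiviral defence, had 26 and 83 against 1, and 114 and 58 against 2. Fcgr2b, the inhibitory receptor for IgG, had 53 and 52 against 3, and 105 and 65 against 3, and Snx20, a sorting nexin, had 35 and 28 against 1, and 48 and 41 against 2.

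The paired immunoglobulin-like receptor genes Pira5 and Lilra6 belong to a family of near-identical copies, and unique alignment may place their reads unevenly. Pira5 had 32 and 60 reads against 2 in MEL and 91 and 93 against 3 in ES-EP, and Lilra6 16 and 30 against 1 and 45 and 58 against 2. In contrast to their neighbour Lilrb3, both had fewer reads in the libraries with match codes than in their partners, for example 26 against 65 in the libraries of ES-EP preparation A at Pira5.

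**Figure D3:**
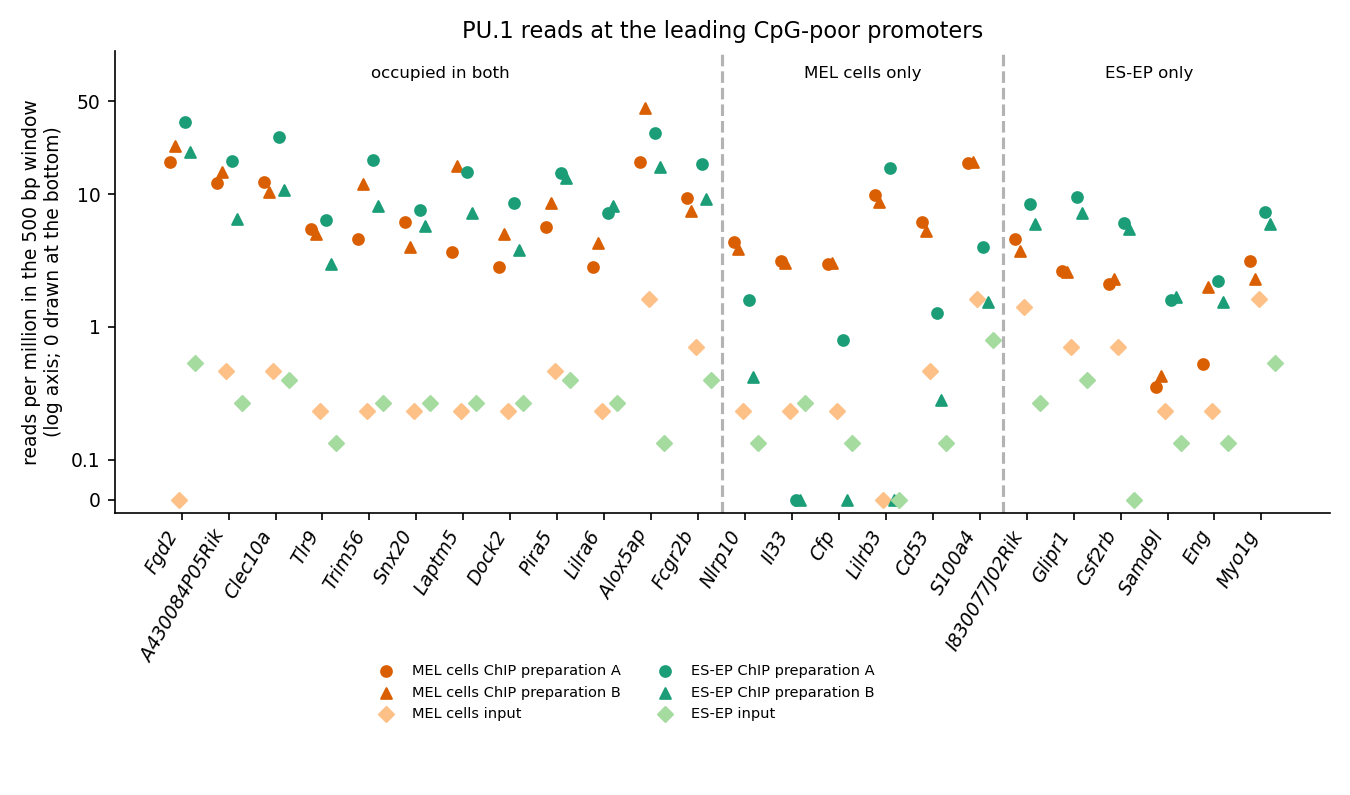
CPM (reads scaled to library depth) in the 500 bp window (log axis, with 0 drawn at the bottom) for the 24 CpG-poor promoters with the largest lowest ratio of ChIP to input, by ChIP preparation (circles and triangles) and input (diamonds), grouped by the cell type in which they were occupied. In the left group all 4 preparations lie above both inputs, and Il33 is at 0 in both ES-EP preparations.

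The list of kinases, adaptors and actin regulators of hematopoietic cells had the largest occupied share of the lists. Of its 36 CpG-poor promoters 11 were occupied in either cell type (30.6%), beside 1.39% of the class. The median ratio of its members was 1.69 in MEL and 1.68 in ES-EP. The medians were 0.337 and 0.56 for the class and 1.18 and 1.12 for all promoters. The class medians are no measure of depletion, since they rest on few reads and on inputs of 0 set to 3 reads. In the MEL input 42.1% of CpG-poor windows had no read. Summed over the class, the ratios were 1.02 and 1.25 in the MEL preparations and 1.48 and 1.34 in ES-EP. Vav1, an exchange factor for Rac, had 50 and 173 reads against 4 in MEL (18.8 times) and 266 and 137 against 11 in ES-EP (20.5 times). Laptm5, a lysosomal membrane protein, had 21 and 113 against 1 in MEL and 92 and 51 against 2 in ES-EP, with preparation B far above A in MEL. Dock2, a Rac activator of leukocytes, had 16 and 35 against 1, and 54 and 27 against 2. The 4 others occupied in both cell types were Btk, the kinase behind the B cell receptor, with 51 and 56 against 0 and 37 and 13 against 2, Inpp5d (SHIP1, a lipid phosphatase) with 31 and 30 against 4 and 87 and 48 against 2, Pik3cg (a catalytic subunit of PI3 kinase) with 19 and 27 against 0 and 79 and 37 against 6, and Nckap1l (of the WAVE complex) with 31 and 48 against 0 and 160 and 91 against 5.

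Myo1g (a myosin of leukocytes), Lcp2 (the adaptor SLP-76) and Was (the protein of Wiskott-Aldrich syndrome) of this list were called in ES-EP alone, and Ncf4, an oxidase subunit also held by the granule list, in MEL alone. Was had 10 and 9 reads against 0 in ES-EP, and 3 and 12 against 10 in MEL. Lcp2 had 13 and 9 against 1 in ES-EP, and 3 and 8 against 2 in MEL.

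Of 67 CpG-poor promoters in the list of myeloid surface and signalling genes 14 were occupied (20.9%), 5 in both cell types, beside 1.39% of the class and 12.4% of all promoters occupied in either cell type. The median ratios of the list were 0.899 in MEL and 0.979 in ES-EP, below the 1.18 and 1.12 of all promoters. An input of 0 was set to 3 reads in these medians too. Beside Fcgr2b these 5 were Itgb2, the beta chain of the leukocyte integrins, with 13 and 27 reads against 1 in MEL and 19 and 12 against 2 in ES-EP, Il1b, the cytokine interleukin-1 beta, with 18 and 17 against 1 and 17 and 8 against 2, Cd300lf, an inhibitory receptor, with 45 and 80 against 8 and 26 and 8 against 1, and Csf2rb2, the interleukin-3 receptor chain, with 27 and 25 against 1 and 44 and 10 against 4. Csf2rb2 lost both calls without the libraries with match codes, which hold 20 of its 27 and 21 of its 25 MEL reads and 39 of the 44 in ES-EP preparation A. Csf2rb, the shared chain of the receptors for GM-CSF, interleukin-3 and interleukin-5, is a close copy of Csf2rb2 and was called in ES-EP alone, with 38 and 39 reads against 0 there and 12 and 16 against 3 in MEL. Tyrobp, the adaptor DAP12, Fcgr1, the high-affinity receptor for IgG, Emr4 and Clec4a3 were called in MEL alone, and Treml2 and the tetraspanin Cd37 in ES-EP alone. Cd53 and Lilrb3 complete the list, both called in MEL alone. Tyrobp had 7 and 21 reads against 1 in MEL and 1 and 4 against 0 in ES-EP, and Fcgr1 had 30 and 23 against 4 and 2 and 3 against 1. The call of Tyrobp ended with at most 1 read per position.

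Of 29 granule and oxidase genes 3 were occupied (10.3%), beside 1.39% of the class and 12.4% of all promoters. Among them Ncf4, a cytosolic subunit of the phagocyte NADPH oxidase, had 14 and 42 reads against 3 in MEL and 10 and 4 against 2 in ES-EP. Ncf1, a further cytosolic subunit, had 15 and 24 against 5 and 26 and 21 against 4, and was called in ES-EP alone.

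The lists of other lineages held single calls or few, beside 1.39% of the class, and at their sizes 1 call is no result about a lineage. Of 17 megakaryocyte and platelet genes 3 were occupied (17.6%), beside 12.4% of all promoters occupied in either cell type. Pf4, platelet factor 4, had 51 and 82 reads against 3 in MEL and 27 and 9 against 3 in ES-EP. The chains of the von Willebrand factor receptor complex Gp1ba and Gp5 were called in ES-EP, Gp1ba with 17 and 14 against 4 and Gp5 with 20 and 24 against 5. The ES-EP calls of Pf4, Gp1ba and Gp5 were all lost with limma and without the second ES-EP input library. Those of Pf4 and Gp1ba were also lost without the libraries with match codes. Of 29 CpG-poor erythroid genes only Nfe2, a subunit of the factor NF-E2, was occupied, with 6 and 21 reads against 1 in MEL and 59 and 23 against 12 in ES-EP. Both calls of Nfe2 ended with at most 1 read per position, as with limma and with a 1,000 bp window, and its MEL call also with the 5 kb input and without MEL preparation B or the libraries with match codes. Among 22 B cell genes Cd72, a coreceptor of the B cell receptor, was occupied in ES-EP with 63 and 41 reads against 6, and among 28 T and NK cell genes Il7r, the interleukin-7 receptor, in MEL with 20 and 20 against 2.

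None was occupied among 12 mast cell genes, 28 interferon-induced genes, 21 genes of liver, pancreas and gut, or 25 promoters of muscle, skin, eye, milk and testis genes. No call fell in the large families with CpG-poor starts either, with 0 of 320 vomeronasal receptor promoters, 0 of 35 bitter taste receptors, 0 of 45 keratin-associated proteins, 0 of 49 defensins, 0 of 55 serpins and 0 of 85 cytochrome P450 genes. The share over the class was 1.39%, at which lists and families of these sizes, other than the olfactory and vomeronasal receptors, would often hold no occupied promoter, and their zeros are no result about them. Ifi35, which is named for its induction by interferon and is not in the list, was called in ES-EP with 14 and 10 reads against 0. The unadjusted counts of the class were 128 windows above input at p below 0.05 in MEL and 186 in ES-EP by the same test, beside 4,254 of 20,838 and 3,237 of 21,017 over all promoters. No read at all fell in 85 of the 320 vomeronasal windows. In the 29 promoters of genes named Clec 2 were occupied, Clec10a and Clec4a3. The lists together hold 311 CpG-poor promoters and 33 of the 119 occupied ones, so that 86 occupied promoters lie outside these named lists, gene families not counted.

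**Figure D4:**
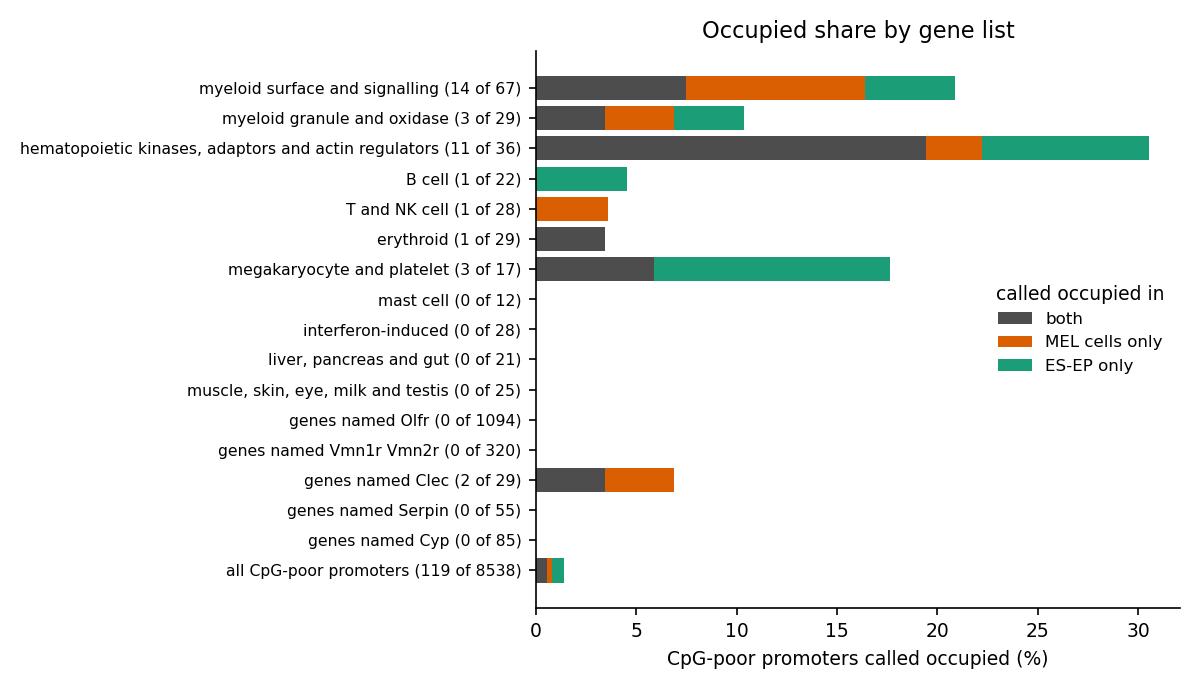
Percent of the CpG-poor promoters in each gene list or family called occupied, with the number occupied in either cell type and the number in the list beside each name and the bars split by cell type. The kinases and adaptors stand at 30.6% and the myeloid surface genes at 20.9%, beside 1.39% of all CpG-poor promoters.

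Most promoters called in 1 cell type alone also had reads above input in the other. Of the 21 called in MEL alone 19 had ratios above 1 in ES-EP, with a median of 2.80, and 2 of them were past the adjusted p there and missed the 2 times required of each preparation. Of the 50 called in ES-EP alone 45 had ratios above 1 in MEL (median 2.33). S100a4, a calcium-binding protein, shows the edge, with 98 and 122 reads against 7 in MEL and 25 and 11 against 6 in ES-EP, where preparation B came to 1.93 times the input. Fxc1 in ES-EP (31 and 9 against 5) and Itgb7 in MEL (17 and 59 against 8) missed in the same way. Just inside were promoters without input reads, where any read exceeds the scaled input of 0, namely Irf4 (12 and 4 reads in ES-EP), Plat (7 and 25 in MEL) and A530064D06Rik (21 and 1 in ES-EP).

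**Figure D5:**
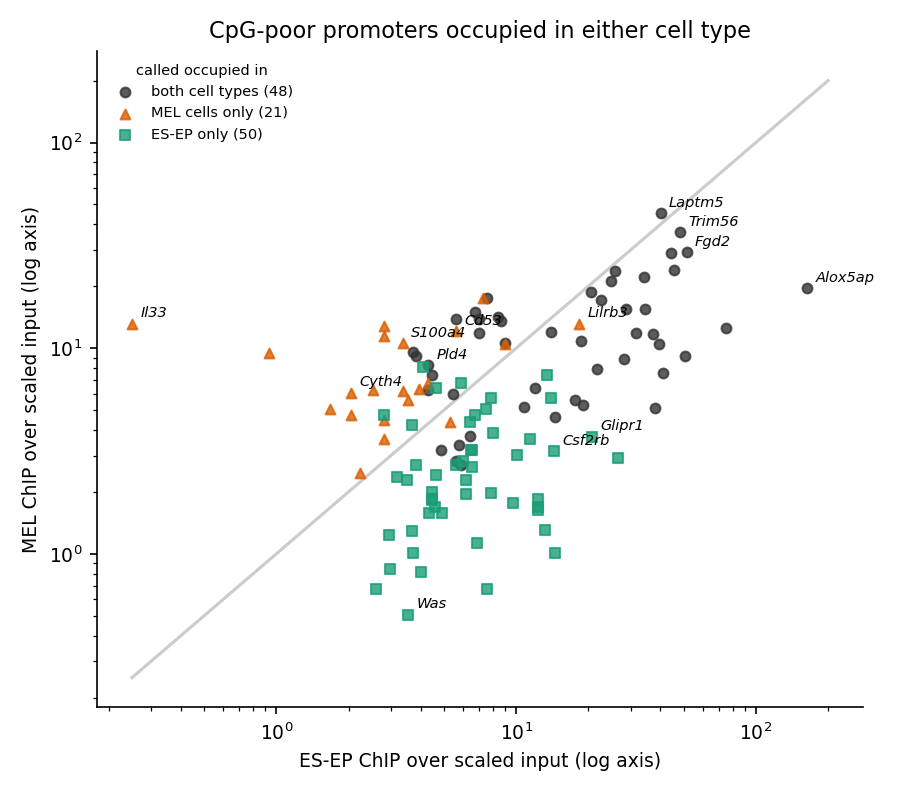
Ratio of MEL ChIP to scaled input against that of ES-EP (both log axes, input of 0 set to 3 reads, ratios under 0.25 drawn at 0.25) for the 119 CpG-poor promoters occupied in either cell type, by the cell type of the call, with the line of equality. Most points called in 1 cell type lie above 1 on both axes, and Il33 lies at the left edge, since ES-EP is the horizontal axis, with a ratio of 0 in ES-EP.

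The difference between the cell types was tested on the 13,998 promoters with at least 10 ChIP reads with limma (voom, n = 2 preparations per cell type, Benjamini-Hochberg over all of them). Of 1,858 CpG-poor promoters tested 3 were higher in MEL and 0 in ES-EP. Over all 13,998 the counts were 3 (0.0214%) and 4 (0.0286%), so every promoter higher in MEL was a member. At an unadjusted p below 0.05 in limma 74 members were higher in MEL and 26 in ES-EP. These are 100 of the 1,858 tested, close to the 5% that chance gives, so their split is no result. The unadjusted count over all promoters was not taken. The median log2 difference (MEL cells minus ES-EP) was 0.11 over the members and -0.39 over all promoters tested, and with median-ratio scaling these were 0.47 and 0.04. That scaling called 36 members higher in MEL and 2 in ES-EP, with 193 and 112 of all promoters in place of 3 and 4.

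Il33, a cytokine of the interleukin-1 family, was higher in MEL, with 18 and 21 reads against 1 in input there and 0 and 0 against 2 in ES-EP (chr19:29999354-29999853). The MEL level was 3.08 ± 0.109 CPM (placed reads scaled to library depth; SD, n = 2), at least 13.7-fold higher than 3 reads over both ES-EP preparations would be, at an adjusted p of 0.0439 in limma. All 4 MEL libraries had between 4 and 14 reads and all 4 ES-EP libraries had 0. Il33 thus met the minimum of ChIP reads for this test through its MEL reads alone. With no minimum of reads it was not called (log2 difference 5.40, adjusted p = 0.449, limma). The difference of the ChIP to input differences was 5.53 and was not called either, with 1 input library in MEL. The call was lost without the libraries with match codes (log2 difference 4.34, adjusted p = 0.184, limma), without MEL preparation A (5.36, adjusted p = 0.459, limma) and without ES-EP preparation A (5.49) or B (5.31), against 5.40 with all. Each of the last 3 fits has 1 preparation in a cell type, and the fitted values depend on the prior count, since ES-EP had no reads.

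Pld4, an exonuclease of endosomes from the phospholipase D family, had 100 and 193 reads in MEL and 15 and 8 in ES-EP. Its levels were 22.6 ± 7.12 and 1.76 ± 0.89 CPM (SD, n = 2 each) and the log2 difference was 3.68 (SE 0.79, adjusted p = 0.0144 in limma). Input was also higher in MEL, at 12 reads against 0. ChIP over input was 8.24 in MEL and 4.29 in ES-EP with its input set to 3 reads (exact 95% lower limit 3.22 at an input of 0). The difference of the ChIP to input differences was -0.67 (adjusted p = 0.96, limma). The call was lost without any 1 of the 4 preparations, with log2 differences from 3.16 to 4.2 and adjusted p-values from 0.222 to 0.792 in limma. These fits leave 1 preparation in a cell type, which is assumed to vary like those of the other. Lilrb3 was the remaining call (log2 difference 3.24, SE 0.76, adjusted p = 0.0439 in limma). Its levels were 9.83 and 8.73 CPM in the MEL preparations and 15.6 and 0 CPM in the ES-EP preparations, so that ES-EP preparation A stood above both of MEL, the pooled levels differed 1.26-fold and the fitted difference rests on the 0 in ES-EP preparation B.

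Of the 21 promoters called occupied in MEL alone 2 (Il33 and Lilrb3) passed this test and of the 50 called in ES-EP alone 0 did. Cd53, a tetraspanin, had 35 and 37 reads against 2 in MEL and 8 and 2 against 1 in ES-EP, with a log2 difference of 3.12 (SE 0.78, adjusted p = 0.0831 in limma). Cfp (properdin, of the alternative complement pathway) had 17 and 21 against 1 and 5 and 0 against 1, and Nlrp10 had 25 and 27 against 1 and 10 and 3 against 1. Of the promoters called in ES-EP alone the largest ratios were those of I830077J02Rik, with 53 and 42 reads against 2 and 26 and 26 against 6 in MEL, and of Glipr1, with 60 and 51 against 3 and 15 and 18 against 3. Eng (endoglin, a coreceptor for TGF-beta) had 14 and 11 against 1 and 3 and 14 against 1, Samd9l 10 and 12 against 1 and 2 and 3 against 1, and Myo1g 46 and 42 against 4 and 18 and 16 against 7. These 5 and Csf2rb had negative log2 differences, from -0.75 to -1.86, with adjusted p-values of at least 0.778 in limma. The 2 members with the most input reads, Mpnd (31 in MEL and 114 in ES-EP) and Cd244 (12 and 17), were not called, with ChIP at 1.56 and 1.34 times the input for Mpnd and 0.675 and 0.724 times for Cd244.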

How the data were processed

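The authors sequenced PU.1 ChIP and input DNA on an Illumina GAII, aligned the reads with ELAND to mm9 and kept unique alignments with up to 2 mismatches (ELAND version not given in the sources used here). The deposited files list 1 alignment per line and hold no measured value, per the file headers and columns, so every read count was made here. Start positions were checked against the mm9 genome. The 5′ ends were shifted by 70 bp (MEL cells) or 65 bp (ES-EP) and counted, repeats included, in 500 bp around the most upstream start (GENCODE M1) of 22,359 protein-coding genes, of which 6 windows with unknown bases were left out. Libraries of a preparation were summed and the group of each taken from the labels. ChIP was compared with input scaled by placed reads by exact binomial tests (two-sided) of the summed reads, which treats reads as independent, so each preparation also had to reach 2 times the input. An input of 0 was set to 3 reads for ratios. Cell types were compared with limma 3.58.1 in R 4.3.3. Both tests were tested on simulated data. Depth was 2,054,667 to 5,051,235 placed reads per library. Genes named are the 12 occupied in both cell types and 6 in each alone with the largest lowest ratio over preparations, the limma calls, 3 on each side of the 2 times limit, occupied list members and the 2 with most input. Arpc4, Mgl2, Lyl1, Rgs18, Traf3ip3, Elmo3, Ifi35, Ino80d and Ticam1 were named after their values were seen. Alternatives covered the test, repeated positions, scaling, input, window, read minimum, fold, CpG limits and leaving out samples. Members, lists and words were chosen with earlier results of these data known. Some items are not reported here. Newer symbols came from RefSeq (GRCm38.p6) by synonym.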

Additional observations from a re-analysis of the deposited data

Results flagged for a closer look

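Of 86 groups of 4 ChIP libraries looked at for a single library far from the other 3 (class values and named occupied promoters), 4 had one, and chance gives about 5%. At Tlr9 in MEL the first library of preparation B had 4.39 CPM and the others 5.35 to 5.49, a gap of 0.877 of the range. At Nlrp10 in MEL the same library had 3.29 and the others 4.23 to 4.39 (0.856 of the range). At I830077J02Rik in ES-EP the second library of preparation A, which carries match codes, had 10.2 and the others 5.53 to 5.99 (0.900 of the range). At Was in ES-EP the first library of preparation B had 0.443 and the others 1.53 to 1.70 (0.861 of the range).

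In 2 of 58 named promoters both preparations of one cell type lay above input and both of the other below it. Il33 stood at 13.2 times the input in MEL, while both ES-EP preparations had 0 reads against 2 in input. Was stood at 0.506 times the input in MEL, with 3 and 12 reads against 10, and at 10 and 9 reads against 0 in ES-EP. The difference of the ChIP to input differences between the cell types passed no adjusted p below 0.05 in limma at a CpG-poor promoter. Without adjustment 151 of 3,447 passed, no more than chance gives at a p below 0.05.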

How the results depend on the processing

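The count of occupied CpG-poor promoters stayed within 1.5 times under most alternatives, from 60 to 88 in MEL and from 75 to 126 in ES-EP. It fell to 17 and 41 with limma against input, and to 44 and 62 with a CpG ratio below 0.3, which holds fewer promoters. Leaving out preparations gave 41 to 88 in MEL, lowest without preparation B, and 42 to 124 in ES-EP, with 57 without preparation A and 42 without the second input library. With the input of both cell types summed, chosen after seeing the data, the count in MEL was 152 (and 115 in ES-EP). The cause was not tested. The 3 differences between cell types became 1 with the letters as a replicate block (Il33, while Pld4 came to an adjusted p of 0.568 and Lilrb3 to 0.518 in limma), where the deviations of the A preparations correlate with r = -0.036, so the letters are not treated as pairs. With log2 of depth-scaled counts plus 0.5 there were again 3, but only Il33 was shared, beside Fcgr1 and Traf3ip3, and Pld4 came to an adjusted p of 0.0544 and Lilrb3 to 0.791 in limma. They became 38 with median-ratio scaling, 0 with no minimum of reads, 0 for the difference of the ChIP to input differences, 6 without the libraries with match codes (Cd53, Clec4a3, Mgl2, Nlrp10, Pld4 and S100a4, chosen after seeing the data), and 0 to 1 without a preparation. Lilrb3 ranged from -0.74 (without ES-EP preparation B) to 7.05 (without A), and Pld4 fell to -0.67 for the difference of differences. The class difference of -0.79 ranged from -1.07 to -0.51 and kept its sign, as did the share. Of 80 calls at named promoters 42 were kept by limma and between 23 of 42 and all under the others. Depth limits calls to windows with 14 reads or more.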
